A study of Mus musculus with 4 samples.

Results

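The 10 genes described here are 10 of the 17550 genes listed in any library. They build or control the contractile apparatus of smooth muscle cells, mark pericytes, or mark the myofibroblasts of a healing wound. They were chosen by name: Acta2, Tagln, Myh11, Cnn1, Cnn2, Lmod1, Smtn, Myocd, Pdgfrb and Rgs5. Each had reads in all 4 libraries and stood at 1 RPKM or more in each (RPKM is the number of reads scaled to gene length and to the total reads of the library).

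Left ventricles were taken from C57BL/6 mice aged 8 weeks, either wild type or labelled Neil3-/-, and every mouse had undergone an experimental myocardial infarction 3 days before RNA was extracted. For each genotype, infarcted and non-infarcted tissue was sequenced, with 1 library per group. Non-infarcted tissue is therefore tissue of hearts that also carried an infarct, and the labels do not say how many mice a library holds or which part of Neil3 is deleted. No difference below has a replicate check, no test across libraries was run and no p-value is given. Intervals in parentheses are 95% intervals that cover counting error only.

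Smooth muscle contracts when myosin with the Myh11 heavy chain pulls on filaments of Acta2 actin, while calponins, transgelin, smoothelin and leiomodin bind these filaments and shape them. Many genes of this apparatus are switched on by serum response factor, which binds a DNA element called the CArG box and takes Myocd (myocardin) or the related factors Mkl1 and Mkl2 as partners. After an infarct, fibroblasts can turn into myofibroblasts, which switch on Acta2 and Tagln but are known to make little Myh11. Pericytes wrap capillaries, depend on the receptor Pdgfrb and carry Rgs5.

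The 4 libraries held between 14.3 M and 18.2 M uniquely assigned reads, with more in both infarcted libraries. Neil3 itself had 62 (non-infarcted) and 155 (infarcted) reads for wild type and more, 391 and 763, for the Neil3-/- label. These reads covered 63.36% and 73.4% of the gene model for wild type, and 62.88% and 71.51% for the Neil3-/- label. Since the deleted part is not named, the total reads of Neil3 cannot check the label. Each genotype direction below therefore refers to the label only. The tissue was cardiac by its markers: 14 of 14 cardiomyocyte markers were present, and their summed level was 38712 and 37614 RPKM in the non-infarcted libraries of wild type and of the Neil3-/- label, and 18623 and 12562 RPKM in the infarcted ones. The atrial light chain Myl7 stood at 49.0 and 10.6 RPKM in the non-infarcted libraries and at 0.29 and 0.183 RPKM in the infarcted ones. Of 4 atrial markers, 1 was higher and 3 lower in infarcted tissue of each genotype. Their sum was 1835 and 1256 RPKM in the non-infarcted and 2501 and 1808 RPKM in the infarcted libraries (wild type first). In non-infarcted tissue, 4 of 4 were lower under the Neil3-/- label than in wild type. In bulk tissue, fewer cells of a type and less RNA per cell cannot be told apart.

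In infarcted tissue of both genotypes, the genes that smooth muscle shares with myofibroblasts (Acta2, Tagln, Cnn1 and Cnn2) and the receptor Pdgfrb stood higher, while Myh11, Myocd and Rgs5 stood lower. Together the 10 genes summed to 544 RPKM in wild-type non-infarcted and 796 RPKM in wild-type infarcted tissue, and to 582 and 979 RPKM in the libraries labelled Neil3-/-. They took 0.133%, 0.178%, 0.137% and 0.21% of all reads in the same order. Acta2 alone made up 36.3% and 38.7% of that sum in the non-infarcted libraries and 47.2% and 48.9% in the infarcted ones.

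**Figure D1:**
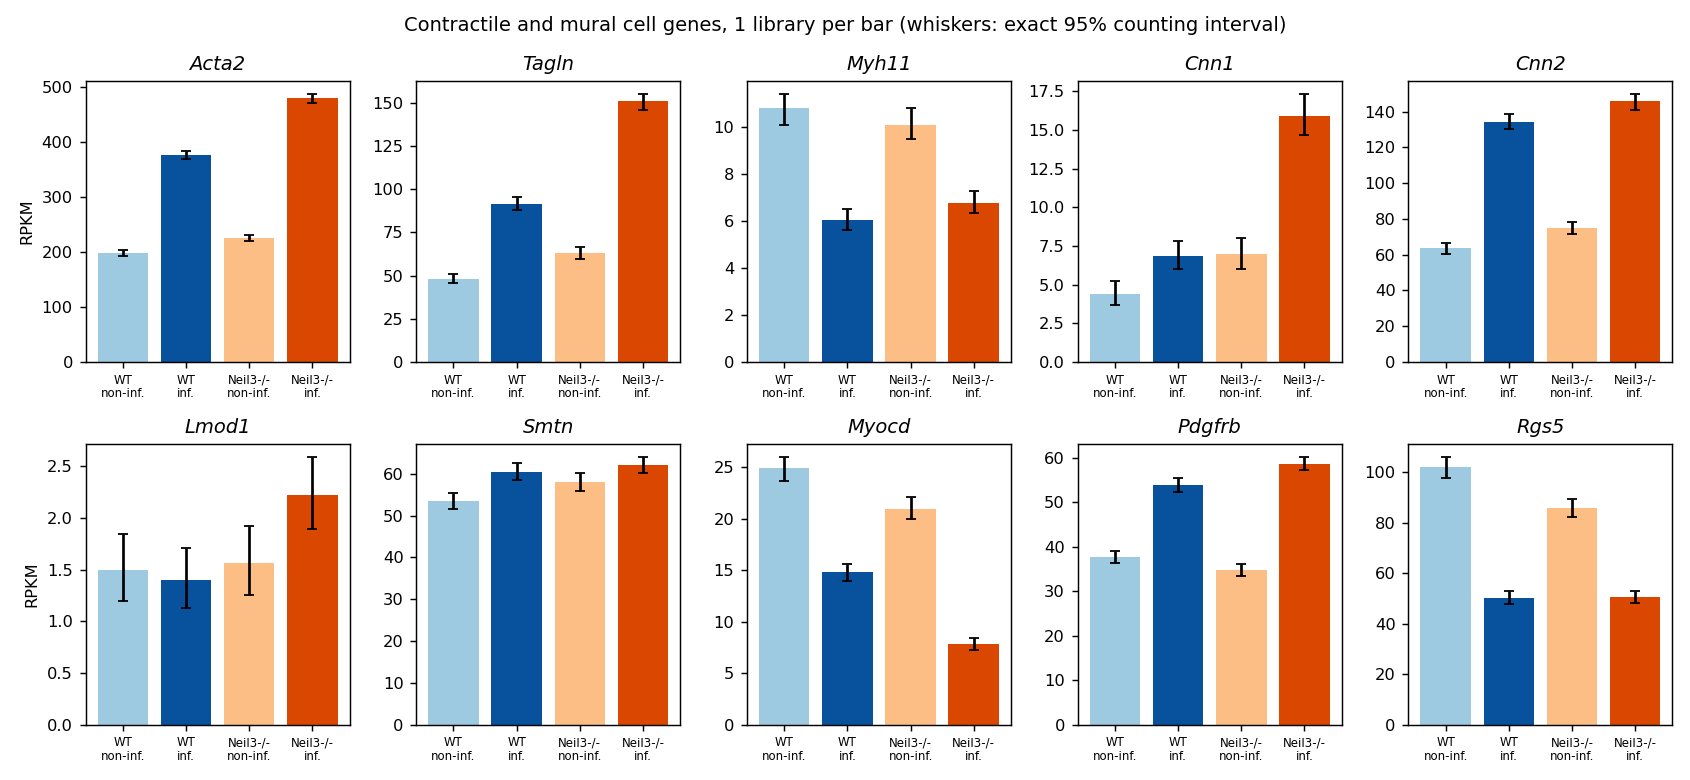
RPKM (y axis, from 0, 1 scale per gene) of each of the 10 genes in the 4 libraries (x axis), 1 library per bar, with exact 95% counting intervals as whiskers. Acta2, Tagln, Cnn1, Cnn2 and Pdgfrb are higher in both infarcted libraries than in the non-infarcted library of the same label, and Myh11, Myocd and Rgs5 are lower.

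Acta2 codes for smooth muscle alpha actin (Entrez 11475), the most abundant of the 10 in every library. It was found at 198 RPKM (non-infarcted) and 376 RPKM (infarcted) for wild type, and at 225 and 479 RPKM for the Neil3-/- label. Both infarcted libraries lay above both non-infarcted libraries. The infarcted library was 1.9-fold higher (1.84 to 1.97) in wild type and 2.13-fold higher (2.06 to 2.19) under the Neil3-/- label. Its reads rest on unique assignment among actin genes of very similar coding sequence, and they covered 91.85% to 99.44% of the gene model.

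Tagln codes for transgelin, an actin-binding protein also called SM22 alpha. Tagln was found at 48.2 RPKM (non-infarcted) and 91.7 RPKM (infarcted) for wild type, and at 63.0 and 151 RPKM for the Neil3-/- label. The 4 libraries had the same order as for Acta2, with a wider spread, since the highest was 3.13-fold above the lowest against 2.42-fold for Acta2. The infarct ratio was 1.9 (1.77 to 2.04) in wild type and 2.39 (2.26 to 2.54) under the Neil3-/- label. Tagln overlaps Pcsk7 in the RefSeq table of another mouse assembly, and Pcsk7 had 428 to 675 reads per library against 1139 to 4352 for Tagln, so reads of both genes may be hard to part.

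Cnn1 codes for calponin 1, which binds actin and slows the myosin motor in smooth muscle. Cnn1 was found at 4.39 RPKM (non-infarcted) and 6.85 RPKM (infarcted) for wild type, and at 6.97 and 15.9 RPKM for the Neil3-/- label. The infarcted library labelled Neil3-/- stood apart, at 576 reads against 130, 235 and 198 in the others. The infarct ratio was 1.56 (1.25 to 1.95) in wild type and 2.28 (1.94 to 2.7) under the Neil3-/- label. Cnn1 had the widest range of the 10 genes, with the highest library 3.63-fold above the lowest.

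Cnn2 codes for calponin 2, a relative that is made in many cell types besides smooth muscle, fibroblasts and macrophages among them. It was found at 63.5 RPKM (non-infarcted) and 134 RPKM (infarcted) for wild type, and at 75.1 and 146 RPKM for the Neil3-/- label. The infarct ratio was 2.12 (2.0 to 2.24) in wild type and 1.94 (1.84 to 2.04) under the Neil3-/- label, so that here, unlike for Cnn1, the wild-type ratio was the larger one. Macrophage markers were higher in infarcted tissue as well. In each genotype 12 of 12 were above 0, where 67.2% (wild type) and 66.3% (Neil3-/- label) of all genes were. Their summed level was 751 and 1212 RPKM in the non-infarcted libraries of wild type and of the Neil3-/- label, and 1731 and 2392 RPKM in the infarcted ones, and their part in the Cnn2 level was not tested.

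Acta2 and Cnn2 were the 2 members whose levels were most alike over the 4 libraries, with a root mean square difference of 0.0847 between their centred log2(RPKM + 1) values. Such likeness is common, since 355 of 9643 genes at 5 RPKM or more lay within 0.1 of Acta2. Their promoter sequences are shown beside those of Cnn1, which was higher in infarcted tissue too, and of Rgs5, which was lower. RefSeq promoter entries (build GRCm38.p6) matched 6 of the 10 genes: Acta2, Cnn1, Cnn2, Lmod1, Smtn and Rgs5. Each sequence is the 250 bases before the annotated start, 5′ to 3′ on the strand of the gene. A CArG box is CC, then 6 bases that are each A or T, then GG. Capitals mark a CArG box, or the same element with 1 of its 6 middle bases changed to G or C.
Acta2: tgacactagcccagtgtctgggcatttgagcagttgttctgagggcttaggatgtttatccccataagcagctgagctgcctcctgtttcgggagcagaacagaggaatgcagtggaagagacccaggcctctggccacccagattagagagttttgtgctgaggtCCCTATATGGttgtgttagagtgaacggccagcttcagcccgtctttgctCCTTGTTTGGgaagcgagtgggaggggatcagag
Cnn2: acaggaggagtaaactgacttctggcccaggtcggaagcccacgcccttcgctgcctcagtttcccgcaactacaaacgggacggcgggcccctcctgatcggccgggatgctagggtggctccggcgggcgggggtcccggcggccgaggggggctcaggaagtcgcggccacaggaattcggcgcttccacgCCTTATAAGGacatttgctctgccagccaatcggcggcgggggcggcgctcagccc
Cnn1: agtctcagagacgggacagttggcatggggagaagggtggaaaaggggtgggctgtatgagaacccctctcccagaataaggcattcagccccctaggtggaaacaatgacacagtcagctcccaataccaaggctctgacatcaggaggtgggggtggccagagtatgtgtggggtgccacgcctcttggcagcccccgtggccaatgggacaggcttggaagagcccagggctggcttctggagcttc
Rgs5: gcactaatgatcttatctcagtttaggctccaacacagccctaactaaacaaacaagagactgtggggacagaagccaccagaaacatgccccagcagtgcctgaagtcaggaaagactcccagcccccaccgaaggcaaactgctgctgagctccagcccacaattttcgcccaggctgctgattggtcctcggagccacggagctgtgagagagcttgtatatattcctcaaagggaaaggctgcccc

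The Acta2 window lies at chr19:34255374-34255623 on the minus strand. It held 2 elements with 1 changed base, from 84 to 75 and from 34 to 25 bases before the start. The Cnn2 window, at chr10:79988350-79988599 on the plus strand, held a full CArG box from 56 to 47 bases before the start. The windows of Cnn1 (chr9:22099003-22099252, plus strand) and Rgs5 (chr1:169655251-169655500, plus strand) held neither form, nor did those of Lmod1 and Smtn. Both search patterns are the same on either strand, though the bases of a single match need not be. Among all 32851 promoter entries, 1.47% held a full CArG box in the same window, 7.24% held the form with 1 changed base, and 0.67% held 2 or more elements of either form. A match of letters describes the sequence and does not show binding, and a link between the elements and the levels was not tested.

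Myh11, the smooth muscle myosin heavy chain and the most restricted marker of mature smooth muscle among the 10, went the other way from Acta2. It was found at 10.8 RPKM (non-infarcted) and 6.05 RPKM (infarcted) for wild type, and at 10.1 and 6.79 RPKM for the Neil3-/- label. Both infarcted libraries lay below both non-infarcted ones. It was 1.78-fold lower in infarcted tissue for wild type (1.61 to 1.96), and 1.49-fold lower for the Neil3-/- label (1.36 to 1.64). Per length, Cnn1 stood at 0.409 (non-infarcted) and 1.13 (infarcted) times the Myh11 level for wild type, and at 0.688 and 2.35 times for the Neil3-/- label.

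Lmod1 codes for leiomodin 1, which starts new actin filaments in smooth muscle, and it was the least abundant of the 10. It was found at 1.5 RPKM (non-infarcted) and 1.4 RPKM (infarcted) for wild type, and at 1.56 and 2.22 RPKM for the Neil3-/- label, from 88, 95, 88 and 159 reads. The first 3 libraries did not differ beyond their counting intervals, and the infarcted library labelled Neil3-/- was highest. The infarct ratio was 0.932 (0.69 to 1.26) in wild type and 1.42 (1.09 to 1.86) under the Neil3-/- label.

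Smtn codes for smoothelin, a protein of the stress fibres of contractile smooth muscle, and it varied least. It was at 53.5, 60.5, 58.0 and 62.0 RPKM in wild-type non-infarcted, wild-type infarcted, labelled Neil3-/- non-infarcted and labelled Neil3-/- infarcted tissue, a range of 1.16-fold. Its infarct ratios of 1.13 (1.08 to 1.19) and 1.07 (1.02 to 1.12) turned below 1 with TMM scaling, at log2 values of -0.05 and -0.14, so no direction is given.

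Myocd, the coactivator myocardin, is made in smooth muscle and in cardiomyocytes. Myocd was found at 24.9 RPKM (non-infarcted) and 14.8 RPKM (infarcted) for wild type, and at 21.0 and 7.8 RPKM for the Neil3-/- label. Infarcted tissue was 1.68-fold lower for wild type (1.56 to 1.8), and 2.69-fold lower for the Neil3-/- label (2.46 to 2.94) and there the lowest ratio of the 10 genes. Cardiomyocyte markers were lower in the same libraries, 14 of 14 in each genotype, where the median log2 ratio came to -1.41 (wild type) and -1.82 (Neil3-/- label). In a comparison chosen after the values were seen, Myocd was set beside each of these 14 markers. The ratio of Myocd to the Z-disc actinin Actn2 moved by no more than 1.11-fold over the 4 libraries, at 23.0, 24.5, 22.0 and 22.5 Myocd per 1000 Actn2 (RPKM). For troponin Tnnt2 the ratio moved by 1.21-fold, and for the Z-disc protein Tcap by 2.7-fold, the most of the 14. Against the other members the ratio moved by 1.91-fold for Rgs5 and 2.13-fold for Myh11, both inside the range of the 14 markers, and by more for the rest, up to 7.72-fold for Acta2, 9.96-fold for Tagln and 11.6-fold for Cnn1. The part of the cardiomyocytes in the Myocd level was not tested.

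Pdgfrb codes for the receptor of platelet-derived growth factor B, carried by pericytes, smooth muscle cells and fibroblasts. Pdgfrb was found at 37.8 RPKM (non-infarcted) and 53.9 RPKM (infarcted) for wild type, and at 34.7 and 58.7 RPKM for the Neil3-/- label. Infarcted tissue was 1.43-fold higher (1.36 to 1.49) in wild type and 1.69-fold higher (1.61 to 1.77) under the Neil3-/- label.

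Rgs5, a regulator that shortens G protein signals and a marker of pericytes, had the opposite direction from Pdgfrb. It was found at 102 RPKM (non-infarcted) and 50.3 RPKM (infarcted) for wild type, and at 85.7 and 50.6 RPKM for the Neil3-/- label. Both infarcted libraries had nearly the same level, and the non-infarcted ones lay well above them. Infarcted tissue was 2.02-fold lower for wild type (1.9 to 2.15), and 1.69-fold lower for the Neil3-/- label (1.59 to 1.81).

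**Figure D2:**
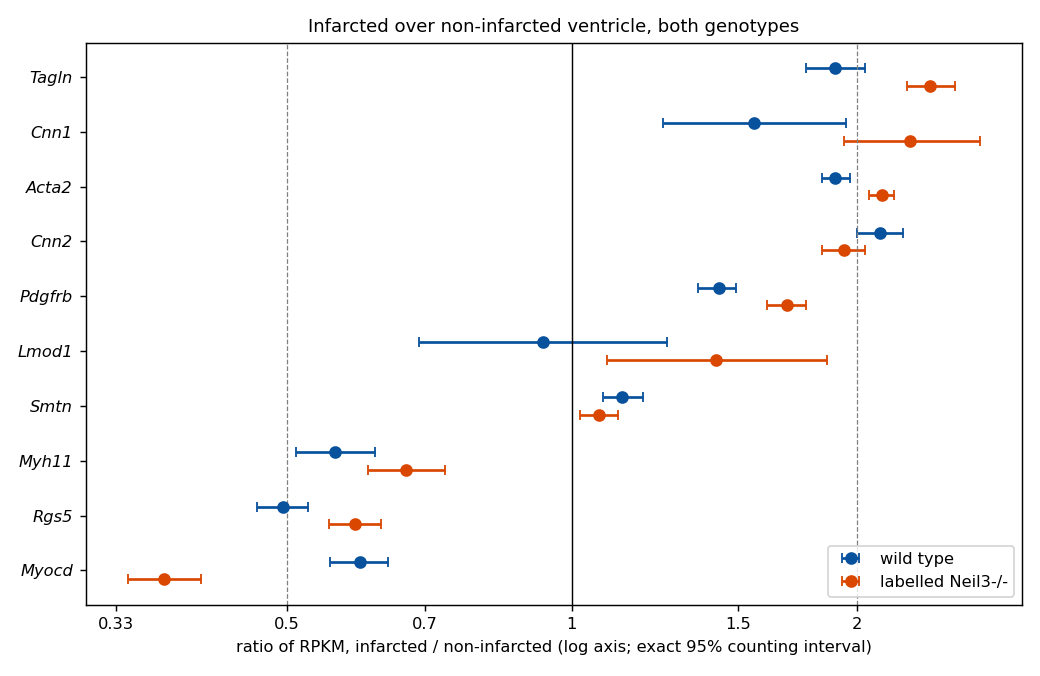
Ratio of RPKM in infarcted over non-infarcted tissue (x axis, log scale) for each gene (y axis), wild type in blue and labelled Neil3-/- in orange, with exact 95% counting intervals and dashed lines at 0.5 and 2. Tagln, Cnn1, Acta2 and Cnn2 lie between 1.56 and 2.39, Smtn lies near 1, and Myh11, Rgs5 and Myocd lie below 0.7 in both genotypes.

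Counted on the log2(RPKM + 1) scale, which understates the ratios of low genes, 1 of the 10 genes was at least 2-fold higher in infarcted wild-type tissue (Cnn2), where 6.21% of the 12515 genes compared were. At least 2-fold lower was 1 of 10 (Rgs5), where 3.6% of all compared genes were. Under the Neil3-/- label, 3 of 10 were at least 2-fold higher (Acta2, Tagln and Cnn1) against 8.2% of 12563 genes, and 1 of 10 was at least 2-fold lower (Myocd) against 6.07%. At 1.5-fold, 3 of 10 stood higher and 3 lower for wild type, against 21.6% and 9.56% of all genes, and 5 of 10 higher and 2 lower for the Neil3-/- label, against 25.0% and 12.4%. For the 10 genes the median log2 ratio came to 0.34 (wild type) and 0.53 (Neil3-/- label), beside 0.21 and 0.24 for all genes compared. TMM scaling took the median of all genes to 0.01 and 0.03 and that of the 10 genes to 0.12 and 0.34. It left 0 of 10 genes in wild type and 1 of 10 under the Neil3-/- label at least 2-fold higher, where 3.64% and 4.37% of all genes were under that scaling. Acta2, Tagln, Cnn1, Cnn2 and Pdgfrb stayed above 0, and Myh11, Myocd and Rgs5 below 0, in both genotypes under each of the 3 other scalings.

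Ratios between 2 genes of the same library do not depend on how libraries are scaled. Acta2 stood at 18.4 times the Myh11 level (17.2 to 19.7) in the non-infarcted and at 62.1 times (57.5 to 67.1) in the infarcted wild-type library. Under the Neil3-/- label the ratios were 22.2 (20.8 to 23.8) and 70.6 (65.8 to 75.8). The Acta2 to Myh11 ratio was thus higher by 3.38-fold (3.05 to 3.74) for wild type and 3.18-fold (2.88 to 3.5) for the Neil3-/- label in infarcted tissue. The ratio of Tagln to Myh11 was higher by 3.38-fold (3.0 to 3.8) for wild type and 3.58-fold (3.2 to 4.0) for the Neil3-/- label, and that of Cnn1 to Myh11 higher by 2.77-fold (2.19 to 3.5) for wild type and 3.41-fold (2.83 to 4.11) for the Neil3-/- label. Rgs5 stood at 2.69 and 2.47 times the Pdgfrb level in the non-infarcted libraries of wild type and of the Neil3-/- label, and at 0.934 and 0.862 times in the infarcted ones. That ratio was lower by 2.88-fold (2.67 to 3.11) for wild type and 2.86-fold (2.65 to 3.1) for the Neil3-/- label in infarcted tissue, nearly the same change in both genotypes.

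**Figure D3:**
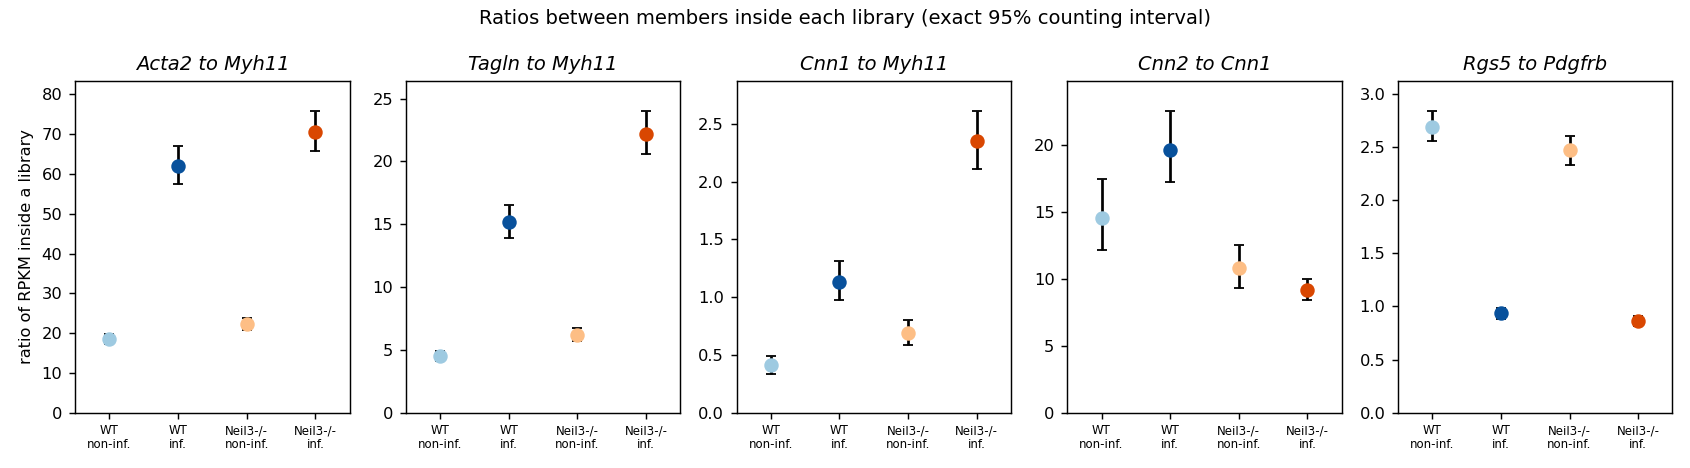
Ratio of RPKM between 2 genes inside each library (y axis, from 0) for 5 gene pairs, with exact 95% counting intervals, 1 point per library. Relative to Myh11, the genes Acta2, Tagln and Cnn1 are higher in both infarcted libraries, Rgs5 is lower relative to Pdgfrb in both, and Cnn2 to Cnn1 is lower in both libraries labelled Neil3-/- than in wild type.

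The order of levels per length differed between libraries. In wild-type non-infarcted tissue Rgs5 ranked next to Acta2, ahead of Cnn2, Smtn, Tagln, Pdgfrb, Myocd, Myh11, Cnn1 and Lmod1. In wild-type infarcted tissue the order was Acta2, Cnn2, Tagln, Smtn, Pdgfrb, Rgs5, Myocd, Cnn1, Myh11 and Lmod1, where Cnn1 and its neighbour Myh11 did not differ beyond counting error, at a ratio of 1.13 (0.972 to 1.31). In the non-infarcted library labelled Neil3-/- the order was Acta2, Rgs5, Cnn2, Tagln, Smtn, Pdgfrb, Myocd, Myh11, Cnn1 and Lmod1. In the infarcted library labelled Neil3-/- the order was Acta2, Tagln, Cnn2, Smtn, Pdgfrb, Rgs5, Cnn1, Myocd, Myh11 and Lmod1. There Tagln and Cnn2 did not differ beyond counting error, at a ratio of 1.04 (0.994 to 1.08). For all other neighbours in the 4 libraries, the counting interval of the ratio lay above 1.

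Between genotypes, Cnn1 and Tagln stood higher and Myocd lower under the Neil3-/- label in both regions. In infarcted tissue, Cnn1 was 2.32-fold higher (1.99 to 2.72) and Tagln 1.64-fold higher (1.56 to 1.73) in the infarcted library labelled Neil3-/- than in infarcted wild-type tissue. Lmod1 was 1.59-fold higher (1.22 to 2.07) and Acta2 1.27-fold higher (1.24 to 1.3). Myocd was 1.9-fold lower (1.73 to 2.08). Cnn2, Pdgfrb and Myh11 had ratios of 1.08 (1.04 to 1.13), 1.09 (1.05 to 1.13) and 1.12 (1.01 to 1.24), and Smtn and Rgs5 ratios of 1.03 (0.98 to 1.07) and 1.01 (0.938 to 1.08). On the log2(RPKM + 1) scale, 1 of 10 genes (Cnn1) was at least 2-fold higher, where 0.249% of 12464 genes were, and none was at least 2-fold lower, where 0.241% were. At 1.5-fold, 2 of 10 were higher (Tagln and Cnn1) against 1.51% of all genes, and 1 was lower (Myocd) against 1.55%. The median of the 10 was 0.13, beside 0.02 for all genes. Of all genes, 54.5% were above 0. In the same comparison, 14 of 14 cardiomyocyte markers were below 0, with a median of -0.51, while 12 of 13 fibroblast and 12 of 12 macrophage markers were above 0, with medians of 0.28 and 0.42. Their part in the ratios of the 10 genes was not tested.

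In non-infarcted tissue Cnn1 was 1.59-fold higher (1.27 to 2.0), Tagln 1.31-fold higher (1.21 to 1.41), Cnn2 1.18-fold higher (1.11 to 1.26) and Acta2 1.14-fold higher (1.1 to 1.18) in the library labelled Neil3-/- than in wild type. Rgs5 was 1.19-fold lower (1.12 to 1.26), Myocd 1.18-fold lower (1.11 to 1.27) and Pdgfrb 1.09-fold lower (1.03 to 1.15). Lmod1, at a ratio of 1.04 (0.767 to 1.42), and Myh11, at 0.943 (0.863 to 1.03), did not differ beyond counting error, and Smtn had a ratio of 1.09 (1.03 to 1.14). Counted on the log2(RPKM + 1) scale, 0 of 10 genes were 2-fold apart in either direction, where 0.254% of 12226 genes were higher and 0.188% lower. At 1.5-fold on that scale it was again 0 of 10, against 1.14% and 0.613%. Cnn1 fell just short there, at a log2 value of 0.56. Of all genes, 53.7% were above 0 here. Of the 15 pericyte markers, 11 were below 0 here, Rgs5 and Pdgfrb themselves among them, with a median of -0.12, and 12 of 12 macrophage markers were above 0, with a median of 0.6. The comparisons share libraries with the infarct comparisons, so these values are not independent of them.

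**Figure D4:**
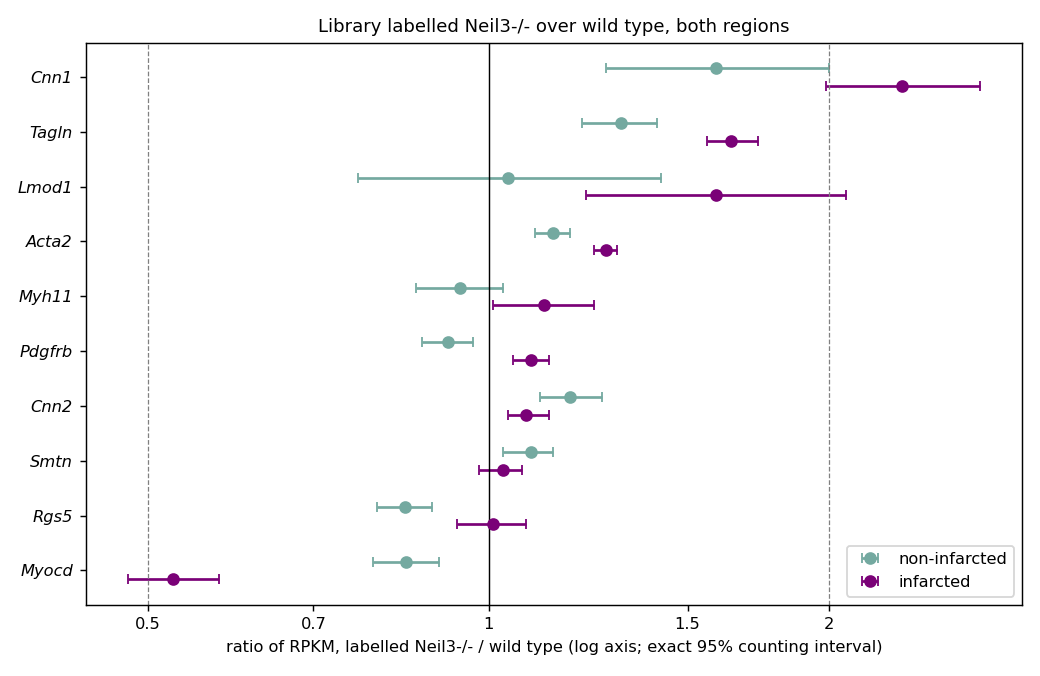
Ratio of RPKM in the library labelled Neil3-/- over wild type (x axis, log scale) for each gene (y axis), non-infarcted tissue in green and infarcted tissue in purple, with exact 95% counting intervals and dashed lines at 0.5 and 2. Cnn1 and Tagln lie to the right in both regions, and Myocd lies at 0.526 in infarcted tissue.

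The calponins parted between genotypes. Cnn2 stood at 14.5 times the Cnn1 level (12.1 to 17.4) in the non-infarcted and at 19.6 times (17.2 to 22.5) in the infarcted wild-type library. Under the Neil3-/- label it stood at 10.8 times (9.3 to 12.5) and 9.14 times (8.38 to 9.98). In infarcted tissue the Cnn2 to Cnn1 ratio was 2.15-fold lower (1.83 to 2.51) under the Neil3-/- label.

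On the log2(RPKM + 1) scale, the difference between the infarct ratios of both genotypes was below 2-fold for all 10 genes, where 0.299% and 0.228% of 12716 genes passed it in each direction. On that scale Myocd was the 1 gene at least 1.5-fold apart, at a log2 difference of -0.61, where 1.55% of all genes were that much lower and 1.12% higher. On the RPKM scale, the infarct ratio of Myocd was 1.61-fold lower (1.43 to 1.8) under the Neil3-/- label. By RPKM, that of Cnn1 was 1.46-fold higher (1.12 to 1.91) and that of Tagln 1.26-fold higher (1.15 to 1.38) under the Neil3-/- label. That of Lmod1 was 1.52-fold higher by RPKM, with a wide interval (1.03 to 2.25), but its log2(RPKM + 1) difference was 0.39. Acta2 differed by 1.12-fold (1.07 to 1.17).

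The relatives of these genes in each protein family were read beside them. Among actins, the cytoplasmic forms Actb and Actg1 were higher in infarcted wild-type tissue by 2.52-fold (2.49 to 2.55) and by 2.28-fold (2.23 to 2.32). The striated muscle actins Actc1 and Acta1 were lower there by 1.51-fold (1.5 to 1.52) and by 1.54-fold (1.5 to 1.58). The smooth muscle gamma actin Actg2, at 1.95 and 3.33 RPKM in wild type and 3.81 and 8.69 RPKM under the Neil3-/- label, was higher in infarcted tissue by 1.7-fold (1.14 to 2.57) for wild type and 2.28-fold (1.74 to 3.02) for the Neil3-/- label. It was 2.61-fold higher (2.0 to 3.43) in the infarcted library labelled Neil3-/- than in wild type. Acta2 made up 1.52% and 1.73% of the summed RPKM of these 6 actins in non-infarcted tissue and 3.19% and 4.65% in infarcted tissue (wild type first).

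Among myosins, the nonmuscle heavy chain Myh9 was higher by 2.0-fold (1.95 to 2.04) for wild type and 2.19-fold (2.15 to 2.24) for the Neil3-/- label, in infarcted tissue, against the lower Myh11. Myh14, another nonmuscle heavy chain, was lower by 2.45-fold (2.26 to 2.65) for wild type and 2.61-fold (2.4 to 2.85) for the Neil3-/- label. Transgelin 2 (Tagln2) was higher by 2.23-fold (2.14 to 2.31) for wild type and 2.42-fold (2.33 to 2.51) for the Neil3-/- label. Calponin 3 (Cnn3) was higher by 1.71-fold (1.61 to 1.81) for wild type and 1.83-fold (1.73 to 1.93) for the Neil3-/- label. The striated muscle leiomodin Lmod3 was lower by 2.83-fold (2.55 to 3.14) for wild type and 3.57-fold (3.19 to 3.99) for the Neil3-/- label, beside ratios of 0.932 and 1.42 for Lmod1. Mkl1, a relative of myocardin that senses free actin, was higher by 1.81-fold (1.62 to 2.02) for wild type and 2.06-fold (1.84 to 2.3) for the Neil3-/- label, against the lower Myocd. Of 15 relatives compared, 3 were at least 2-fold higher and 3 lower in wild type, while 5 stood higher and 4 lower under the Neil3-/- label. Of all genes compared, 6.21% were higher and 3.6% lower in wild type, and 8.2% and 6.07% under the Neil3-/- label. The median of the relatives was 0.53 and 0.62, and with TMM 0.32 and 0.39, with 1 and 3 of them at least 2-fold higher and 3 and 5 lower. With TMM, 3.64% and 4.37% of all genes were higher and 6.15% and 8.45% lower.

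The other genes of smooth muscle contraction and its cytoskeleton also lay on both sides. Of 27 such genes, 2 were at least 2-fold higher and 2 lower in infarcted wild-type tissue, while 4 stood higher and 4 lower under the Neil3-/- label. The shares of all genes were 6.21% higher and 3.6% lower in wild type, and 8.2% and 6.07% under the Neil3-/- label. The 27 genes had a median of 0.01 in wild type and 0.26 under the Neil3-/- label, which TMM scaling took to -0.2 and 0.04. With TMM, 0 and 1 of them were at least 2-fold higher and 5 and 7 lower. Among all genes, 3.64% and 4.37% were then higher and 6.15% and 8.45% lower. Cald1 (caldesmon, an actin-binding brake on contraction) was higher by 1.92-fold (1.84 to 2.0) for wild type and 2.42-fold (2.32 to 2.52) for the Neil3-/- label, and the LIM protein Csrp1 higher by 2.17-fold (2.05 to 2.3) for wild type and 2.33-fold (2.21 to 2.46) for the Neil3-/- label. Ppp1r12b, a myosin phosphatase subunit also made in heart muscle, was lower by 2.04-fold (1.89 to 2.2) for wild type and 2.44-fold (2.26 to 2.65) for the Neil3-/- label. The Z-disc protein Ldb3 was lower by 2.02-fold (1.97 to 2.07) for wild type and 2.78-fold (2.71 to 2.86) for the Neil3-/- label, and the calcium-binding Casq1 lower by 3.44-fold (2.84 to 4.2) for wild type and 4.53-fold (3.52 to 5.89) for the Neil3-/- label. The list holds genes that striated muscle also makes, the cardiomyocyte markers were lower in the same libraries, and their part in the list was not tested.

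Pericyte markers lay on both sides of 0 as well. Of all genes compared, 67.2% (wild type) and 66.3% (Neil3-/- label) were above 0 in infarcted tissue. Of 15 markers, Rgs5 and Pdgfrb included, 9 were above and 6 below 0 in wild type, with a median of 0.16, and 10 above and 5 below under the Neil3-/- label, with a median of 0.23. TMM took these medians to -0.04 and 0.01, so no direction is given for the list. At the 2-fold mark, 1 was higher and 1 lower in each genotype, and with TMM 0 and 1 were higher and 2 lower in each. Among all genes, 6.21% were higher and 3.6% lower in wild type, and 8.2% and 6.07% under the Neil3-/- label. With TMM these shares were 3.64% and 6.15%, and 4.37% and 8.45%. The adhesion molecule Mcam was higher by 2.3-fold (2.2 to 2.41) for wild type and 2.47-fold (2.35 to 2.6) for the Neil3-/- label, in infarcted tissue. Abcc9, the sulfonylurea receptor of pericyte and heart muscle potassium channels, was lower by 1.9-fold (1.82 to 1.99) for wild type and 2.39-fold (2.29 to 2.5) for the Neil3-/- label. The Notch receptor Notch3 had infarct ratios of 0.983 (0.922 to 1.05) and 1.19 (1.11 to 1.27). The summed level of the list was 368 and 343 RPKM in the non-infarcted and 413 and 404 RPKM in the infarcted libraries (wild type first), and no marker was at 0. Endothelial markers summed to 516 and 504 RPKM in the non-infarcted and 806 and 760.3 RPKM in the infarcted libraries in the same order, and Rgs5 had the opposite direction.

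Myofibroblast and repair genes were mostly higher in infarcted tissue, as Acta2 and Tagln were. Of the 13 fibroblast markers, 9 were above 0 in wild type and 10 under the Neil3-/- label, where 67.2% and 66.3% of all genes were. The medians of these markers were 0.33 and 0.64, and 0.1 and 0.43 with TMM. The markers summed to 2020.1 and 2528 RPKM in the non-infarcted libraries and to 2812 and 4084 RPKM in the infarcted ones, with none at 0. Of 20 myofibroblast and repair genes, 6 were at least 2-fold higher and 2 lower in infarcted wild-type tissue, and 11 were higher and none lower under the Neil3-/- label. The shares of all genes were 6.21% and 3.6% in wild type, and 8.2% and 6.07% under the Neil3-/- label. The 20 genes had medians of 0.79 and 1.03. With TMM the numbers at least 2-fold higher were 4 and 5, beside 3.64% and 4.37% of all genes. Lox, the enzyme that cross-links collagen, was higher by 2.35-fold (2.26 to 2.45) for wild type and 3.19-fold (3.07 to 3.32) for the Neil3-/- label. Between genotypes in infarcted tissue, 18 of these 20 genes were above 0, with a median of 0.48, the direction of Cnn1, Tagln and Acta2. Of all genes, 54.5% were above 0 there. Of 14 smooth muscle markers, 7 of them among the 10 genes, 13 were above 0 and 1 below, with a median of 0.34. With TMM, 12 of 13 were above 0. The 27 other genes of smooth muscle contraction and its cytoskeleton lay on both sides, 12 above and 15 below 0, with a median of -0.07. That list also holds genes that striated muscle makes. Of the 15 pericyte markers, 7 were above and 8 below 0, with a median of -0.0. The part of fibroblast number in the levels of the 10 genes was not tested.

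**Figure D5:**
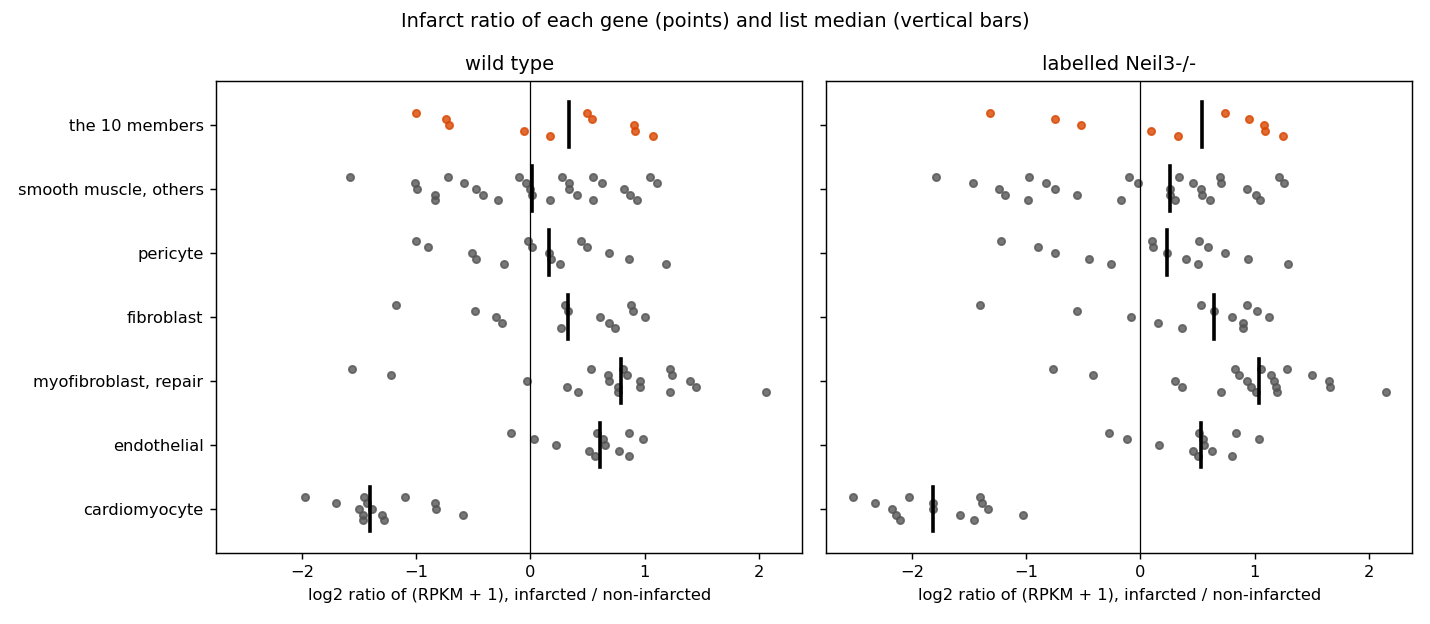
Log2 ratio of (RPKM + 1) in infarcted over non-infarcted tissue (x axis) for each gene (points) of the 10 members and of 6 marker lists (rows), with list medians as vertical bars, wild type left and labelled Neil3-/- right. The 10 genes spread to both sides of 0, from -1.0 to 1.07 in wild type and from -1.32 to 1.25 under the Neil3-/- label, while cardiomyocyte markers all lie below 0.

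Upstream signals were read from lists as well. Of 19 genes of transforming growth factor signalling, which drives the myofibroblast state, 3 stood 2-fold or more higher in infarcted tissue in each genotype and none was lower, beside 6.21% and 8.2% of all genes higher and 3.6% and 6.07% lower (wild type first). With TMM, 2 of the 19 were higher in each, where 3.64% and 4.37% of all genes were. The ligand Tgfb1 was higher by 2.27-fold (2.14 to 2.41) for wild type and 2.12-fold (2.0 to 2.25) for the Neil3-/- label. Of 23 regulators around serum response factor, 1 was at least 2-fold higher and 2 lower in each genotype. Of all genes, 6.21% and 8.2% were higher and 3.6% and 6.07% lower (wild type first). With TMM, 0 of the 23 were higher and 2 lower in each genotype. The shares of all genes were then 3.64% and 4.37% higher, and 6.15% and 8.45% lower. Srf itself, named after its values were seen, was at 38.6 and 42.2 RPKM in wild type and at 37.7 and 34.8 RPKM under the Neil3-/- label. Fhl2, a cofactor abundant in heart muscle, was lower by 2.8-fold (2.72 to 2.87) for wild type and 4.28-fold (4.15 to 4.42) for the Neil3-/- label.

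Among ligands for Pdgfrb and its relative, Pdgfb was found at 21.7 RPKM (non-infarcted) and 36.7 RPKM (infarcted) for wild type, and at 22.6 and 32.1 RPKM for the Neil3-/- label. Pdgfra, the receptor of fibroblasts, was at 12.3, 19.3, 12.0 and 21.7 RPKM in the same order, the direction of Pdgfrb. Pdgfrl, a receptor-like gene, was 2.52-fold higher (2.07 to 3.08) in the infarcted library labelled Neil3-/- than in wild type. In the RGS family, 4 of 11 genes compared stood 2-fold or more higher in infarcted tissue in each genotype, and 3 of 11 with TMM, against the lower Rgs5. Among all genes, 6.21% and 8.2% were that much higher (wild type first), and 3.64% and 4.37% with TMM. Rgs16 was higher by 3.83-fold (3.06 to 4.83) for wild type and 3.37-fold (2.65 to 4.32) for the Neil3-/- label, and Rgs19 higher by 2.64-fold (2.26 to 3.08) for wild type and 2.44-fold (2.13 to 2.82) for the Neil3-/- label. Rgs6 was at 7.08 and 3.09 RPKM in wild type and at 5.62 and 2.3 RPKM under the Neil3-/- label, the direction of Rgs5.

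Over the 4 libraries, the genes most like Acta2 among 9643 genes at 5 RPKM or more were Cers6, Tk1 and Fkbp10, with root mean square differences of 0.0105 to 0.0134 between centred log2(RPKM + 1) values. Those most like Myh11 were 1700020I14Rik, Klhl7 and Tmem70 (0.0181 to 0.0244). Mospd2, Cxcl10 and Ncs1 were most like Pdgfrb (0.00869 to 0.0116), and Per3, Mitf and Syde2 most like Rgs5 (0.0342 to 0.0573). With 4 libraries such likeness is easily met: 355 genes lay within 0.1 of Acta2, 167 of Myh11, 1078 of Pdgfrb and 58 of Rgs5.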

How the data were processed

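The deposited read counts are unique reads per gene, per the file headers, and the deposited RPKM values equal those counts divided by the listed gene length and the library total (largest relative error 5.11e-15). Gene length in the files is another deposited column, and coverage, in percent of the gene model, is the authors' value too. The submitters' processing notes name build mm9. Aligner, counter, annotation and strandedness were unknown, being not given in the sources used here.

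Genes not listed in a library were taken as 0 reads. Ratios of RPKM carry exact Clopper-Pearson 95% intervals of the read share of both libraries. Intervals for changes of ratios come from the normal approximation on the 4 read numbers. Counts of genes used log2(RPKM + 1) ratios of genes at 1 RPKM or more in a library compared. The calls and intervals were tested on simulated data. Alternatives were TMM (edgeR 4.0.16, R 4.3.3) and median-of-ratios scaling, totals without the 100 genes with most reads, a pseudocount of 0.1, no filter, a filter at 5 RPKM, and fewer members. With 1 library per group, no library could be left out and no test was run. Values were computed with Python 3.11.15, numpy 2.4.6 and scipy 1.17.1.

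The 10 members and the 18 lists (223 of 230 genes found) were chosen with earlier results of these data known. Named genes are the members, their relatives, up to 4 genes per list and comparison with the largest log2(RPKM + 1) ratio, up or down, defining markers, and the 3 genes most like each of 4 members. The Myocd comparison and the CArG search with 1 changed base were chosen after values were seen.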

Additional observations from a re-analysis of the deposited data

Results flagged for a closer look

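Of the 10 genes, 4 had ratios on opposite sides of 1 in the arms of a contrast, and these differences were not tested, since each arm is 1 pair of libraries. The infarct ratio of Lmod1 was 0.932 (0.69 to 1.26) in wild type and 1.42 (1.09 to 1.86) under the Neil3-/- label, a log2 difference of 0.61. For 3 genes it was the genotype ratio that changed side between regions. Myh11 had ratios of 0.943 (0.863 to 1.03) in non-infarcted and 1.12 (1.01 to 1.24) in infarcted tissue, a log2 difference of 0.25. Pdgfrb had 0.92 (0.873 to 0.969) and 1.09 (1.05 to 1.13), a log2 difference of 0.24, and was the 1 of these genes whose intervals lay wholly on opposite sides of 1. Rgs5 had 0.843 (0.796 to 0.892) and 1.01 (0.938 to 1.08), a log2 difference of 0.25. The Rgs5 ratio in infarcted tissue fell below 1 with TMM, at a log2 value of -0.02, so that its opposite sides rest on the scaling.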

How the results depend on the processing

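The ratios of Smtn and Rgs5 near 1 changed sign: the infarct log2 ratio of Smtn (0.18 and 0.10) became -0.05 and -0.14 with TMM, -0.06 and -0.16 with median-of-ratios scaling and, under the Neil3-/- label, -0.00 without the top 100 genes. In infarcted tissue the genotype log2 ratio of Rgs5 (0.01) became -0.02, -0.03 and -0.00 in the same order, and that of Smtn (0.04) became -0.00 with median-of-ratios scaling. No other member changed sign in any comparison under the 3 scalings and the pseudocount of 0.1.

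The median infarct log2 ratio of the 10 genes in wild type (0.34) was 0.12 with TMM, 0.11 with median-of-ratios scaling, 0.50 with the filter at 5 RPKM and 0.17 without Cnn2, Pdgfrb and Rgs5. Under the Neil3-/- label (0.53) it was 0.34, 0.32, 0.74 and 0.33. The genotype median in infarcted tissue (0.13) was 0.35 without those 3 genes. The number of members at least 2-fold higher in infarcted tissue went from 1 to 0 in wild type under the 3 other scalings. Of all genes, 3.64% (TMM), 3.58% (median-of-ratios) and 4.89% (without the top 100 genes) were that much higher. Under the Neil3-/- label that number of members went from 3 to 1 with TMM, to 0 with median-of-ratios scaling and to 1 without the top 100 genes. The shares of all genes there were 4.37%, 4.12% and 6.51%. The number of members 2-fold lower went from 1 to 2 with median-of-ratios scaling, beside 8.77% of all genes. Without Cnn2, Pdgfrb and Rgs5, 0 members were at least 2-fold higher and 0 lower in wild type, and 3 were 1.5-fold higher and 1 lower under the Neil3-/- label. The shares of all genes were 6.21% and 3.6% for the former, and 25.0% and 12.4% for the latter. With a pseudocount of 0.1, 1 member (from 0) was 1.5-fold higher between genotypes in non-infarcted tissue, where the share of all genes went from 1.14% to 2.43%.

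Over all genes, 777 were at least 2-fold higher and 450 lower in infarcted wild-type tissue (63.3% higher), against 37.2% with TMM (455 against 769) and 36.5% with median-of-ratios scaling (448 against 781). Under the Neil3-/- label the share was 57.5% (1030 against 762), 34.1% (549 against 1060) and 32% (517 against 1100). A pseudocount of 0.1 gave 1262 and 1578 higher genes. Genotype counts at 2-fold in infarcted tissue went from 31 and 30 to 70 and 71 with this pseudocount and to 18 and 14 with the filter at 5 RPKM, and in non-infarcted tissue from 31 and 23 to 70 and 48 and to 16 and 9. The counts for the difference of infarct ratios went from 38 and 29 to 99 and 100 and to 19 and 9. At 1.5-fold, 2698 higher and 1196 lower genes in wild type became 1584 and 1796 with TMM and 1545 and 1827 with median-of-ratios scaling. No paired analysis was possible because the groups share only 1 replicate number. Depth limits Lmod1 most, with 88 to 159 reads.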
